A study of Mus musculus with 6 samples.

Results

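Transcripts of blood coagulation and fibrinolysis, the enzyme system that makes and dissolves clots, were examined in mouse liver after feeding for 12 weeks, either with a Western-style diet rich in fat (high-fat) or with a low-fat diet. The members were all probe sets with 1 gene symbol in the platform's gene table that named 1 of 32 genes for clotting factors, fibrinogen chains, inhibitors or the plasminogen system. Of these 32 genes, 31 had a probe set, out of 8251 genes with a single-gene probe set on the array, and they were read by 38 probe sets. F11 had none in the gene table used and is not analysed here. A total of 26 member genes passed the filter on dim probe sets and were tested. F3, Plaur, Procr, Tfpi and A2m had a probe set but did not pass it.

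Both groups were C57BL/6 mice, a common inbred strain, with 3 arrays of total liver RNA per diet. The labels name LDL receptor deficiency among their keywords, but give the strain alone for these mice and name no mutation, and no age or sex was found in them. They call the arrays of a diet replicates without saying whether each held 1 mouse or a pool, so p-values measure the spread between these arrays, which may be technical. The study has this 1 comparison of diets. Values are linear intensities of a probe set, which can be compared between arrays but not between genes. Where 3 values of a diet are given, they are those of its arrays 1, 2 and 3. The arrays had been scaled to 1 trimmed mean, 8550 to 8856 of the 12488 probe sets exceeded the floor of 68.9 used here, and the number of arrays limits the precision.

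Clotting runs as a cascade in which each inactive factor is cut into a protease that activates the next, ending with thrombin, which turns soluble fibrinogen into fibrin. Antithrombin, heparin cofactor II and the protein C pathway restrain the cascade, and plasmin, made from plasminogen, digests fibrin. Hepatocytes secrete most of these proteins into plasma, whereas tissue factor, thrombomodulin, the endothelial protein C receptor and the plasminogen activators are made mainly by other cells. In RNA of whole liver, fewer cells of a type and less RNA per cell cannot be told apart.

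No member differed between the diets by limma's test. With 1 probe set per gene, 0 of the 26 tested members passed an adjusted p of 0.05, where 0.915% of all 6557 tested genes and 0.827% of all 8950 tested probe sets did. At an unadjusted p of 0.05 the count was also 0 of 26, against 9.5% of all tested genes, and the smallest adjusted p was 0.718. The arrays of the diets overlapped in all 26, while the arrays were separate in 14.5% of all tested genes. There were 11 members with a log2 difference above 0 and 15 below 0, where 51.3% of all tested genes were above 0. The median log2 difference, high-fat minus low-fat, was -0.033 over the members and 0.0077 over all tested genes.

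On the floored log2 scale the differences were also bounded. Among the probe sets used for the genes, the largest was that of F8, which was 1.28 times as high with low-fat as with high-fat feeding. The 95% interval of the fold lay within 1.5-fold in both directions for 17 of the 26 members, or 65.4%, and for 32.0% of all tested genes. The fit lets the variance depend on intensity. Of the 26 members, 24 were above the floor on all 6 arrays, as were 5495 of the 6557 tested genes. The part of signal strength in these shares was not tested. The interval lay within 2-fold for 25 of the 26. The exception was the tissue plasminogen activator gene Plat, whose signal was close to the floor. Raising values to the floor narrows the differences of dim members. For Thbd the mean deposited intensities were 94.2 with high-fat and 42.1 with low-fat feeding, while the fitted interval of the fold ran from 0.75 to 1.87. These intervals are of single genes, with 1 probe set each, and are not adjusted for their number. Second probe sets of some members had wider intervals. Those of F10 (log2 -1.03 to 0.13) and Serpinf1 (log2 -0.47 to 1.67) went beyond 2-fold, and that of Proc is described below.

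**Figure D1:**
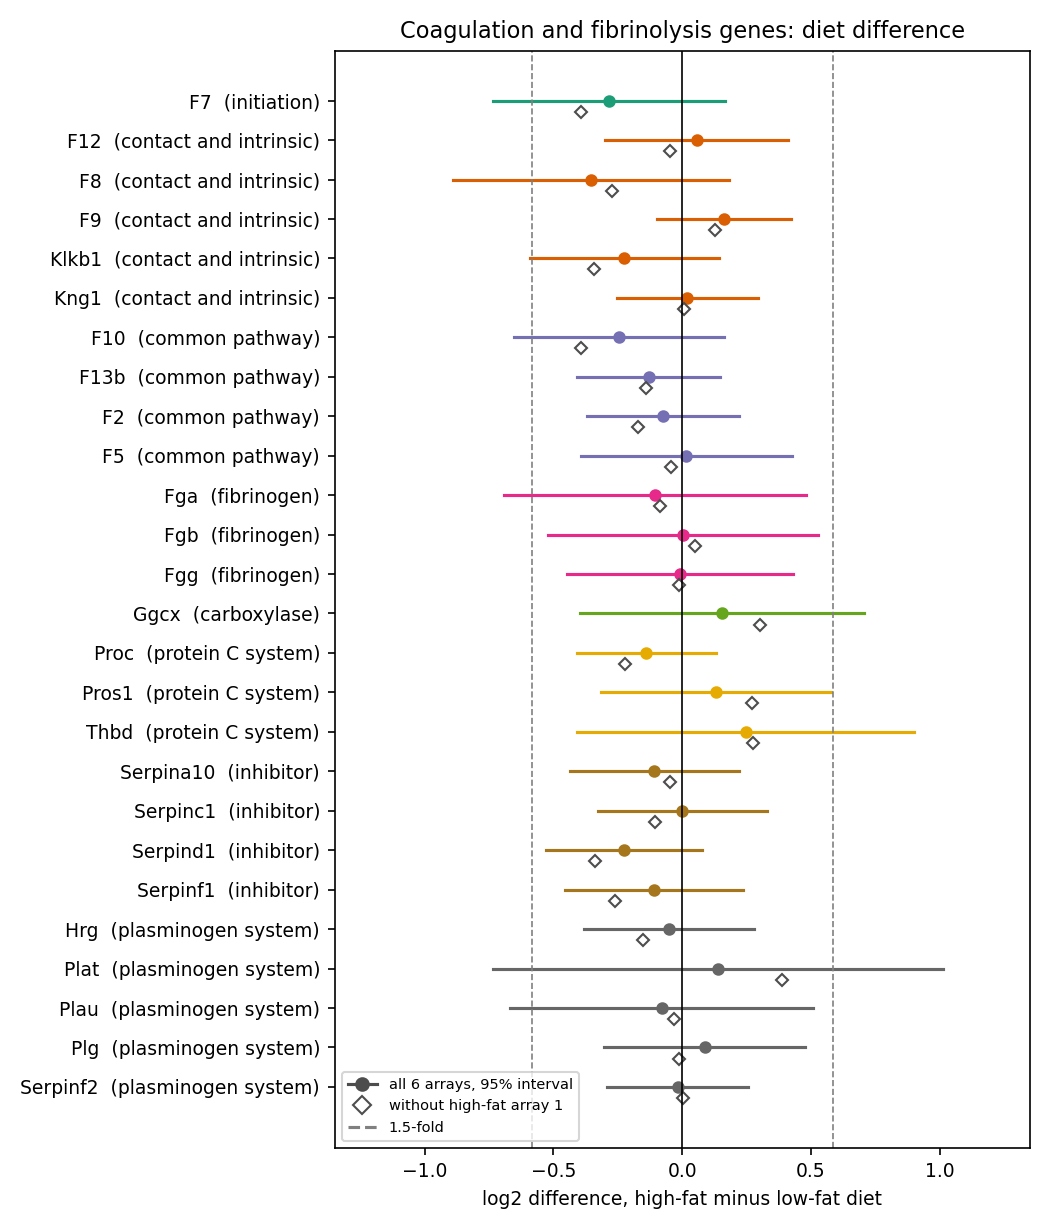
Log2 difference (high-fat minus low-fat diet) of the 26 tested members, with 1 probe set per gene, grouped by role. Filled points and lines show limma's estimate with its 95% interval from all 6 arrays, open diamonds the estimate without high-fat array 1, and dashed lines a 1.5-fold difference. Every interval from 6 arrays includes 0, and 17 lie between the dashed lines.

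The 3 fibrinogen chains, Aα, Bβ and γ, are encoded by the neighbouring genes Fga, Fgb and Fgg and assemble into one plasma protein. Fibrinogen is also an acute phase protein, whose synthesis in hepatocytes is raised by interleukin 6. The 3 genes serve 1 protein yet stood at different relative levels on the same arrays. As background, the 250 bases before each gene's start are shown, from RefSeq on mouse build GRCm38.p6. Capitals mark CTGGGA, the core of the type II interleukin 6 response element, and TTCNNNGAA, the palindrome bound by STAT factors.

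Fga, chr3:83025903-83026152, plus strand: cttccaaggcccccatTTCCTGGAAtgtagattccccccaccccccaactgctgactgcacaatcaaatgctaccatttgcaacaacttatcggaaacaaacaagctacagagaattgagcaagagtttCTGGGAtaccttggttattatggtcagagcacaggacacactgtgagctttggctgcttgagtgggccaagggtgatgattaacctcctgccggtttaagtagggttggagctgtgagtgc
Fgb, chr3:83049864-83050113, minus strand: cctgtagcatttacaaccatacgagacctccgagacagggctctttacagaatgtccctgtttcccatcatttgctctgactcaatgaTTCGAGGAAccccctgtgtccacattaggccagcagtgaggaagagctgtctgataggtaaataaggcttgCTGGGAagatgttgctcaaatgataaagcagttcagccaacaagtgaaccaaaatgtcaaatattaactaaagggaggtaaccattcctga
Fgg, chr3:83007474-83007723, plus strand: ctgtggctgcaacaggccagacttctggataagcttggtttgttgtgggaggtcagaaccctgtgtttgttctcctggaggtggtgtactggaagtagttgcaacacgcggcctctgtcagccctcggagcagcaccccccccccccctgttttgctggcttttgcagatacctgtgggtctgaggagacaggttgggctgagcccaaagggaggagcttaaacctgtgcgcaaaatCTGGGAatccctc

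All 3 windows held CTGGGA on the gene's own strand, beginning at base -121 of Fga, -91 of Fgb and -13 of Fgg, counted from the listed start. On either strand it was present in 27.0% of the 32851 promoters of the table, and in 10 of the 24 members that had a promoter there. The percentage is of promoters, whereas the member count is of genes, which may have several promoters. An excess among the members therefore cannot be read from these values. TTCNNNGAA lay in the windows of Fga and Fgb and not in that of Fgg, and 7.02% of all promoters held it. The palindrome of the liver factor HNF1, also searched on both strands, was in 0 of the 24. It was in only 3 of the 32851 promoters (0.00913%), too few for its absence from the members to mean anything. No capitals overlap, and a match of letters is not a binding site. Whether these matches bear on the levels of the 3 genes was not tested.

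Fga was measured at 7098, 6396 and 8581 on high-fat arrays 1, 2 and 3, and at 5007, 8976 and 10816 on low-fat arrays 1, 2 and 3. Its low-fat values held both the lowest and the highest of the 6 and enclosed all high-fat values. The means were 7358 ± 1115 (SD, n = 3) for the high-fat diet and 8266 ± 2969 (SD, n = 3) for the low-fat diet, a log2 difference of -0.11 ± 0.26 (SE; limma adjusted p = 0.960). Fgb stood at 6610, 5865 and 9079 on high-fat arrays and at 5093, 7476 and 9173 on low-fat arrays. As for Fga, low-fat array 1 was the lowest and low-fat array 3 the highest of the 6. The log2 difference of Fgb was 0.0037 ± 0.23 (SE; limma adjusted p = 0.999).

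Fgg gave 10340, 9643.5 and 10953 on high-fat arrays and 14291, 9164 and 8506 on low-fat arrays. Here low-fat array 1 was the highest of the 6 and low-fat array 3 the lowest, the reverse of their places for Fga and Fgb. The log2 difference was -0.0095 ± 0.20 (SE; limma adjusted p = 0.997). All 3 estimates shifted when low-fat array 1 was left out, to -0.43 for Fga, -0.23 for Fgb and 0.22 for Fgg, with limma adjusted p-values of 0.582, 0.897 and 0.832. The Gapdh control ratio, the signal at the 3' end of the transcript over that at the 5' end, was 1.04 on low-fat array 1 and 0.82 on low-fat array 3, and its part in these values was not tested.

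**Figure D2:**
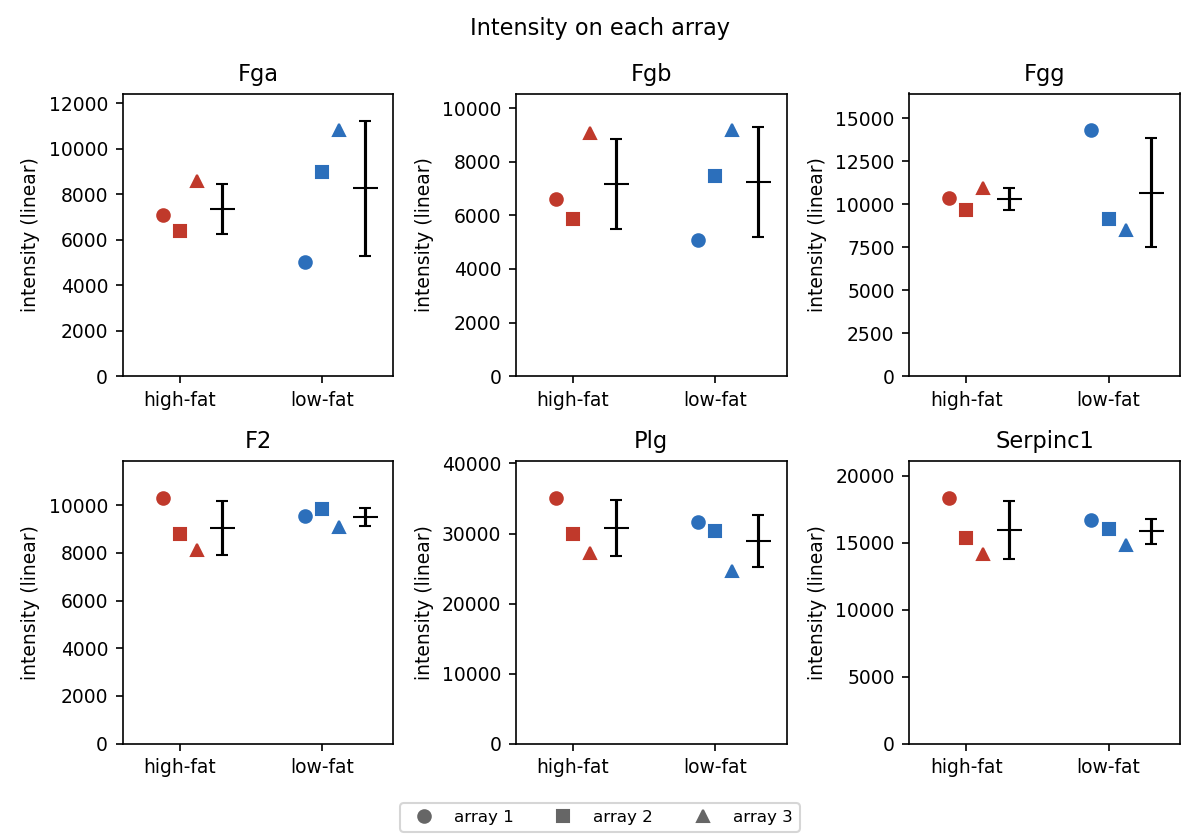
Linear intensity of Fga, Fgb, Fgg, F2, Plg and Serpinc1 on each array, with the mean and SD of each diet (n = 3, black) and the array number as the symbol. For Fga and Fgb low-fat array 1 is the lowest of the 6 points, and for Fgg it is the highest, at 14291.

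Of the list used for the acute phase response, to which fibrinogen belongs, 0 of 23 tested genes passed limma's adjusted threshold. An unadjusted p under 0.05 was reached by 7, 5 of them higher and 2 lower with high-fat feeding, where 9.5% of all tested genes had one in either direction. The list's median log2 difference was 0.29, against -0.0095 for the 3 fibrinogen chains. Its 2 smallest p-values belonged to Hamp, which encodes the iron hormone hepcidin, with a log2 difference of -1.15 (limma adjusted p = 0.0947), and to the serum amyloid gene Saa3, with 1.26 (limma adjusted p = 0.180). Saa3 stood at 455, 759 and 1179 on high-fat arrays 1, 2 and 3 and at 319, 360 and 256 on low-fat arrays. Without high-fat array 1, Saa3 and the serum amyloid gene Saa2 passed, with log2 differences of 1.62 and 2.40 and limma adjusted p-values of 0.0368 and 0.0108. These were 2 of the 23 genes, where 0.921% of all genes passed. The suffix of the Saa2 probe set used marks a gene family. A second Saa2 probe set had 0.69 on these arrays and did not pass (limma adjusted p = 0.254). For Lcn2, also on the list, a probe set not used for the gene passed on these arrays (log2 3.55, limma adjusted p = 0.0402). The Lcn2 probe set used for the gene did not (log2 0.032, limma adjusted p = 0.987). On all 6 arrays the first of these had a log2 difference of 2.52 (limma adjusted p = 0.381) and the diets overlapped. On all 6 arrays the probe set used for Saa2 had a log2 difference of 1.57 (limma adjusted p = 0.465) and the diets overlapped. On the same 5 arrays the differences of Fga, Fgb and Fgg were -0.086, 0.051 and -0.012, with limma adjusted p-values of 0.971, 0.983 and 0.992.

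Clotting is set off by tissue factor, encoded by F3, which binds factor VII. F3 lay above the floor on 2 of the 6 arrays, with intensities from 40 to 137, and was not tested. The probe set used for F7 gave 3600, 3201 and 2562 on high-fat arrays and 5070, 3339 and 3152 on low-fat arrays. Low-fat array 1 alone was well above the others, and the diets overlapped. Its log2 difference was -0.28 ± 0.20 (SE; limma adjusted p = 0.774), and -0.070 without low-fat array 1. A second F7 probe set gave 2458, 1865 and 1328 on high-fat arrays and 2365, 2293 and 2016 on low-fat arrays. It had the same difference, -0.28 (limma adjusted p = 0.782), but here high-fat array 3 was the lowest and low-fat array 1 did not stand out.

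The contact factors, which start clotting on charged surfaces, and the factors of the intrinsic branch had small differences in both directions. Kng1, which encodes the kininogen that carries the contact proteases, was the steadiest member, from 15361 to 15881 on high-fat arrays and from 14956 to 15775 on low-fat arrays. Its coefficients of variation were 1.67% and 2.69%, and its log2 difference of 0.020 had a 95% interval from -0.26 to 0.30. F12, the contact zymogen, had a log2 difference of 0.056, with values from 3930 to 5766 on high-fat arrays and from 4568 to 5090 on low-fat arrays. Klkb1, which encodes plasma prekallikrein, had a log2 difference of -0.23 ± 0.16 (SE), with intensities of 1180, 814 and 1050 against 1066, 1262 and 1198.

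F9, the protease of the intrinsic branch, gave 4664, 4075 and 4626 on high-fat arrays and 3842, 4269 and 3827 on low-fat arrays. Its log2 difference was 0.16 ± 0.12 (SE; limma adjusted p = 0.774), and the diets overlapped through high-fat array 2 and low-fat array 2. Among the probe sets used for members and above the floor on all 6 arrays, this difference was the highest. F8, its cofactor, made mainly by endothelial cells, stood at 193, 197 and 265.5 on high-fat arrays and 247, 311 and 275 on low-fat arrays. Its log2 difference was -0.36 ± 0.24 (SE; limma adjusted p = 0.761), with a 95% interval from -0.89 to 0.18. Of the 8 endothelial markers tested, 0 passed limma's adjusted threshold, 4 lay above 0 and 4 below. Their summed intensity ran from 4293 to 5235 on high-fat arrays and from 4419 to 4789 on low-fat arrays.

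In the common pathway, F2 encodes prothrombin, the precursor of thrombin. It was measured at 10304.5, 8774.5 and 8098.5 on high-fat arrays and 9544.5, 9834 and 9101.5 on low-fat arrays. High-fat array 1 was the highest and high-fat array 3 the lowest of the 6, with the low-fat arrays between them. The log2 difference was -0.074 ± 0.13 (SE; limma adjusted p = 0.940), with a 95% interval of the high-fat over low-fat ratio from 0.77 to 1.17. F5, the cofactor of factor X, varied more on the high-fat diet, from 2430.5 to 4032, than on the low-fat diet, from 3039 to 3519, around a log2 difference of 0.017.

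F10, the protease that cleaves prothrombin, stood at 3495, 2878 and 2289 on high-fat arrays and at 3668, 3762 and 2774 on low-fat arrays. On both diets array 3 was the lowest, and the log2 difference was -0.24 ± 0.18 (SE; limma adjusted p = 0.788). A second, dimmer F10 probe set had a log2 difference of -0.45 ± 0.26 (SE; limma adjusted p = 0.697). F13b, the carrier subunit of the factor that crosslinks fibrin, had a log2 difference of -0.13, with values from 1670 to 1873 and from 1820 to 2194.

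Factors II, VII, IX and X and proteins C and S need vitamin K, which the carboxylase encoded by Ggcx uses to modify their glutamate residues. Ggcx stood at 304, 364 and 468 on high-fat arrays and 315, 281 and 425 on low-fat arrays, with a log2 difference of 0.15 ± 0.24 (SE; limma adjusted p = 0.930). Array 3 was the highest on both diets. In the list of vitamin K dependent proteins, which holds 6 of these members with Gas6 and Mgp, 4 of the 8 tested genes lay above 0 and 4 below, and 0 passed at an unadjusted p of 0.05.

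Protein C, once activated by thrombin on thrombomodulin, inactivates the cofactors V and VIII with the help of protein S. The bright probe set of Proc, used for the gene, gave 7291.5, 6165 and 6159 on high-fat arrays and 6909, 7345 and 7288 on low-fat arrays. High-fat arrays 2 and 3 lay below all low-fat arrays and high-fat array 1 did not. Its log2 difference was -0.14 ± 0.12 (SE; limma adjusted p = 0.830). Pros1, for protein S, had a log2 difference of 0.13 ± 0.20 (SE), with values from 497 to 757 and from 471 to 601.

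The second Proc probe set went the other way. It stood at 101.3, 154 and 215 on high-fat arrays and at 67, 46.5 and 44 on low-fat arrays, so the diets did not overlap and all low-fat values were under the floor. It passed the filter only through the 3 high-fat arrays, on which it is high, so its fitted difference and p are not given. Its suffix marks relaxed probe selection, and the bright probe set of the same gene had no such difference. The 2 probe sets of Serpinf1, described with the inhibitors, also differed in sign.

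Thbd, the gene of thrombomodulin, and Procr, that of the endothelial protein C receptor, were dim. The probe set used for Thbd was above the floor on all 3 high-fat arrays and on 1 low-fat array, with values from 72 to 125 and from 12 to 97, and had a log2 difference of 0.25 ± 0.29 (SE; limma adjusted p = 0.893). Procr was above the floor on 2 arrays, both of the high-fat diet, and was not tested.

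Among the inhibitors, Serpinc1 encodes antithrombin, the main inhibitor of thrombin and factor Xa. Its values were 18338, 15332 and 14131 on high-fat arrays and 16676.5, 16007 and 14856.5 on low-fat arrays. As for prothrombin, high-fat array 1 was the highest and high-fat array 3 the lowest of the 6. The log2 difference was 8.76e-04 ± 0.15 (SE; limma adjusted p = 0.9998), and the ratio of high-fat over low-fat had a 95% interval from 0.80 to 1.26. Serpind1, for heparin cofactor II, stood at 9535, 7713 and 7425 on high-fat arrays and 9880, 9744 and 9081 on low-fat arrays, where only high-fat array 1 reached the low-fat range. Its log2 difference of -0.23 ± 0.14 (SE) had the smallest p of the probe sets used for members, 0.127 unadjusted (limma adjusted p = 0.718).

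Serpina10, which encodes the protein Z dependent inhibitor of factor Xa, had a log2 difference of -0.11, with values from 1991 to 2677 and from 2161 to 2534. Serpinf1 encodes pigment epithelium-derived factor, a serpin without known protease inhibition. Its bright probe set had a log2 difference of -0.11 ± 0.15 (SE), and its dim one 0.60 ± 0.47 (SE), with limma adjusted p-values of 0.913 and 0.810. The general protease inhibitor gene A2m was under the floor on all 6 arrays, from 9 to 44.5.

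Tfpi, the inhibitor of the tissue factor complex, was also under the floor on all 6 arrays, at 12, 23 and 39 on high-fat arrays and 66.5, 49 and 57 on the low-fat diet. The diets did not overlap, as in 9.93% of the single-gene probe sets that were not tested. With the floor at the 10th percentile, 17.9, its log2 difference was -1.18 ± 0.43 (SE; limma adjusted p = 0.495).

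Plg encodes plasminogen, the zymogen of the clot-digesting protease plasmin. The brighter of its probe sets, whose suffix marks a gene family, gave 35090, 29943 and 27199.5 on high-fat arrays and 31716, 30405 and 24703.5 on low-fat arrays. On both diets array 1 was the highest and array 3 the lowest. The log2 difference was 0.088 ± 0.17 (SE; limma adjusted p = 0.950), and 0.027 ± 0.15 (SE) for the other probe set. Serpinf2, for the plasmin inhibitor alpha-2-antiplasmin, had log2 differences of -0.018 and 0.019 on its 2 probe sets, both with an SE under 0.15. Hrg, for a plasma protein that binds plasminogen and heparin, had a log2 difference of -0.049 ± 0.15 (SE), with values from 4747 to 6610 on high-fat arrays and from 5498 to 6346 on low-fat arrays.

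The plasminogen activators were near the floor. Plau, for urokinase, stood at 134, 168 and 130 on high-fat arrays and 128, 182 and 148 on low-fat arrays, with a log2 difference of -0.079 ± 0.26 (SE; limma adjusted p = 0.976). Plat was above the floor on 3 arrays, high-fat arrays 2 and 3 and low-fat array 2, and had a 95% interval from -0.73 to 1.01. Plaur, the urokinase receptor of leukocytes, stood at 37, 108 and 86 on high-fat arrays and 31, 16 and 24 on low-fat arrays. These values did not overlap, as in 9.93% of the single-gene probe sets that were not tested. Only high-fat arrays 2 and 3 were above the floor, and Plaur was not tested. With the floor at 17.9 its log2 difference was 1.57 ± 0.50 (SE; limma adjusted p = 0.404). All 9 tested macrophage markers lay above 0, where 51.3% of all tested genes did. Of the 9, 0 passed limma's adjusted threshold and 3 had an unadjusted p under 0.05, against 9.5% of all tested genes. A second C1qb probe set lay below 0 (log2 -0.091) and a second Csf1r probe set above it (0.65). Summed intensities of the whole list ran from 8568 to 10612 on high-fat arrays and from 6190 to 8051 on low-fat arrays. Of the list, 0 genes were under the floor on all arrays, and without high-fat array 1 the phagocyte marker Mpeg1 passed (limma adjusted p = 0.0296). Their part in the Plaur values was not tested.

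**Figure D3:**
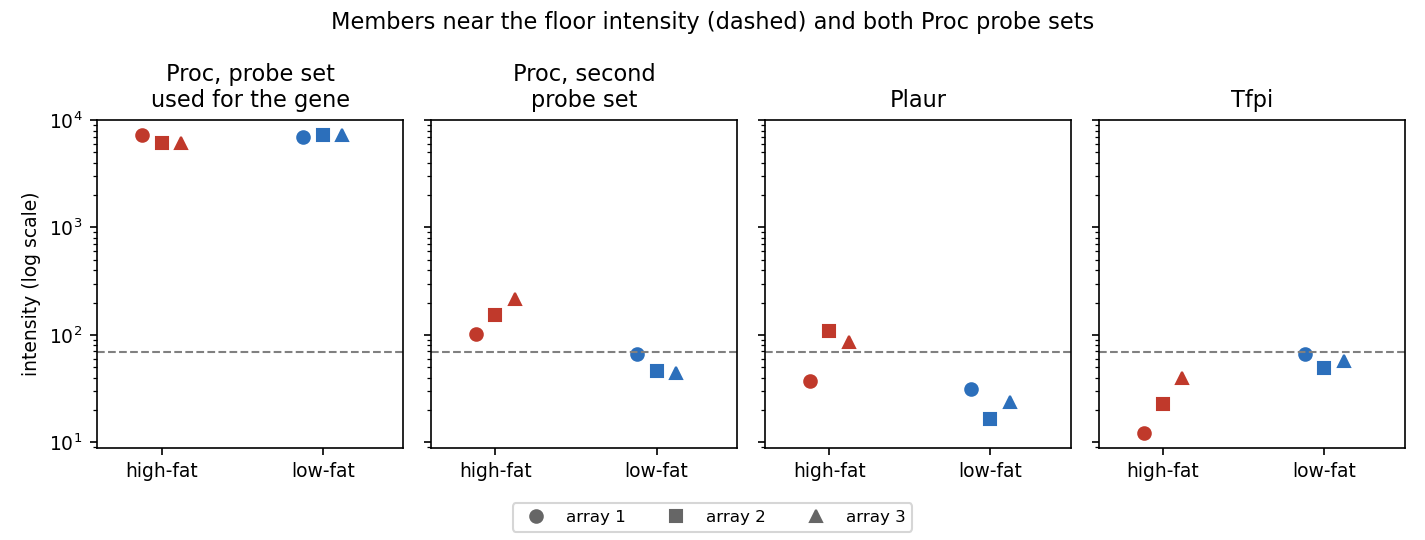
Intensity on a log axis of both Proc probe sets, Plaur and Tfpi on each array, with the floor of 68.9 dashed. The second Proc probe set and Plaur are higher and Tfpi is lower on the high-fat arrays, all dim, with values from 12 to 215. The bright Proc probe set, from 6159 upward, overlaps between the diets.

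Plasminogen is also activated on cell surfaces, where the complex of S100a10 and annexin A2 binds it. S100a10 was the 1 called gene among the 23 tested genes of the list used for the rest of haemostasis, where 0.458% of all tested genes were called higher. That list was chosen with earlier results of these data known, so the count is a description and not a test. S100a10 stood at 4079, 4837 and 5058 on high-fat arrays and 2272, 1979 and 1764.5 on low-fat arrays, so the diets were far apart. It rose 2.33-fold (log2 1.22 ± 0.14 SE, limma adjusted p = 0.00445). Its call held with each array left out, with limma adjusted p-values from 0.00652 to 0.0391, and was lost without the trend of the variance (0.0592) and without a filter (0.126). A second, much dimmer S100a10 probe set gave 162, 171 and 136 against 64, 151 and 41, and was above the floor on 4 arrays. Its diets overlapped and it did not pass (log2 0.80, limma adjusted p = 0.534). Anxa2, for annexin A2, gave 848, 1482 and 2572 against 425, 516 and 264, a log2 difference of 1.93 ± 0.38 (SE) that did not pass (limma adjusted p = 0.0651). It passed in 3 of 19 alternatives, 1 of them without high-fat array 1 (limma adjusted p = 0.0199), and the adjusted p reached 0.466 without a filter. Across the list 16 genes lay above 0 and 7 below, with 1 called higher and 0 called lower. An unadjusted p under 0.05 was reached by 6 genes that were higher and 1 that was lower, against 9.5% of all tested genes. The lower one was Habp2 (log2 -0.87, limma adjusted p = 0.402). The median of the list was 0.14, and 0.047 without high-fat array 1.

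Many members made mainly by hepatocytes were brightest on high-fat array 1 among the high-fat arrays. It was the highest of the 3 high-fat arrays in 13 of the 26 tested members, against 29.7% of all tested genes. The 13 were F2, F7, F9, F10, F12, Klkb1, Kng1, Plg, Proc, Serpinc1, Serpind1, Serpinf1 and Hrg. Among the 24 members above the floor on all 6 arrays, the median deviation from the 6-array mean on the log2 scale was 0.085 on high-fat array 1, -0.11 on high-fat array 2 and -0.0030 on high-fat array 3. On the low-fat arrays it lay between 0.014 and 0.049. For these 24 members the median coefficient of variation was 15.8% on high-fat arrays and 8.48% on the low-fat diet, against 15.1% and 14.6% for all genes read this way.

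**Figure D4:**
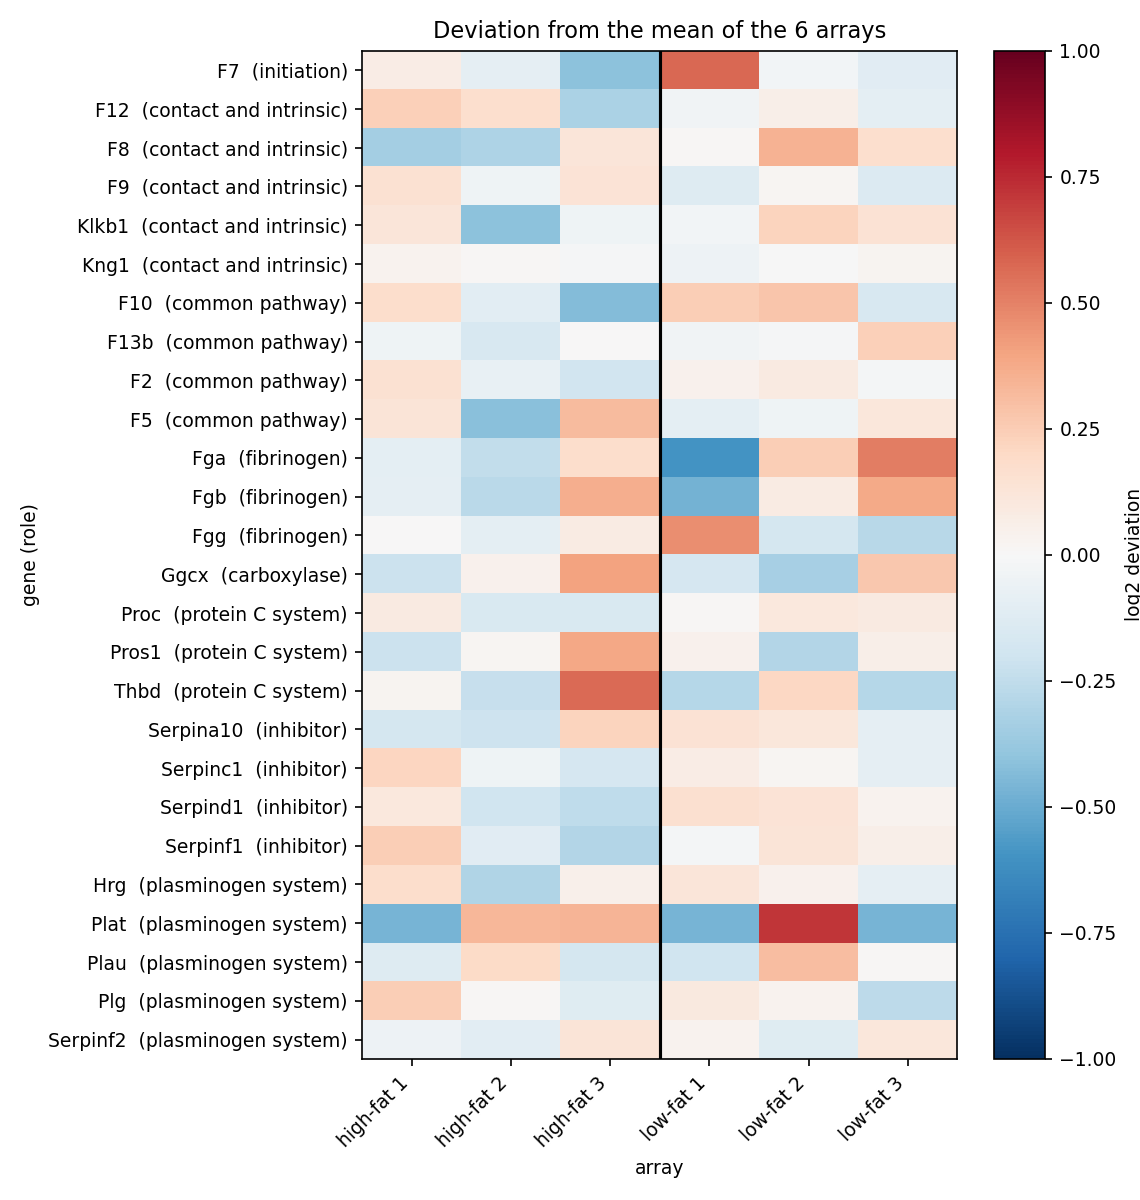
Log2 deviation of each tested member from its mean over the 6 arrays, by array (columns) and gene (rows, by role), from blue (below) to red (above). Fga and Fgb are below and Fgg above their mean on low-fat array 1, and 13 members are highest on high-fat array 1 among the high-fat arrays.

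Without high-fat array 1 more members lay lower on the high-fat diet, and still none passed. That array was the highest of the high-fat arrays in 13 members, so leaving it out must lower their high-fat means. The counts of direction that follow are a description and not a test. Of the 26 tested, 18 had a log2 difference below 0, or 69.2%, against 47.5% of all genes tested on those 5 arrays, and the median was -0.048. Of the 7 hepatocyte markers, 6 were below 0 on these 5 arrays and 3 on all 6, and their median log2 difference was -0.032 and 0.038. Among them the urea cycle gene Cps1 had -0.36 on the 5 arrays, which did not overlap (unadjusted p = 0.0472, limma adjusted p = 0.551). Their part in the members' values was not tested. The count past limma's adjusted threshold was 0 of 26, where 0.921% of all genes passed, and the smallest adjusted p was 0.451. That value belonged to Serpind1, with a log2 difference of -0.34 and an unadjusted p of 0.0245, the 1 member of 26 under 0.05, where 9.3% of all genes reached that level in either direction and 4.51% were lower. The arrays no longer overlapped in 5 members, F2, Klkb1, Proc, Serpind1 and Serpinf1, which is 19.2% of the members against 25.5% of all genes. High-fat values were the lower ones in all 5, a direction in which 11.6% of all genes did not overlap. All 5 were among the 13 members in which the array left out was the highest high-fat one. F2 had a log2 difference of -0.17 and Proc of -0.22, with limma adjusted p-values of 0.782 and 0.676. The second F7 probe set had -0.50 (unadjusted p = 0.0215, limma adjusted p = 0.427).

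Hepatocyte markers were read above the floor on all 6 arrays, for a tissue labelled as liver: 7 of 8 had a probe set, and of these 0 passed limma's test at an adjusted or an unadjusted p of 0.05. Their summed intensity was 166177, 141533 and 124128 on high-fat arrays 1, 2 and 3 and 167367, 151190 and 121071 on low-fat arrays, highest on array 1 and lowest on array 3 of each diet. The brightest markers weigh most in this sum. Alb, Apoa1, Ahsg and Cps1, the brightest, had this order on both diets, whereas Ttr, Ass1 and Apob did not. Prothrombin, antithrombin and plasminogen were likewise highest on high-fat array 1 and lowest on high-fat array 3 within their diet. The Gapdh ratio was 1.22, 1.23 and 0.89 on high-fat arrays and 1.04, 1.07 and 0.82 on low-fat arrays, lowest on the arrays numbered 3. Transcripts of pancreatic acinar cells were present too, with sums of 6 genes from 2241 to 12540 on high-fat arrays and from 2238 to 7209 on low-fat arrays, highest on high-fat array 2. The part of these measures in the members' values was not tested.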

How the data were processed

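Total RNA of liver was measured on 6 Affymetrix mouse arrays, grouped by diet from their titles. The authors deposited 1 linear intensity per probe set; no source used here names software, background correction or genome build. The 2% trimmed means of the deposited arrays agreed, so their scaling was kept. Of 12488 probe sets, the platform's table gave 1 symbol to 10855 and several to 396, and lacked 1237; 10839 were matched by gene ID to RefSeq's gene table, which changed 0 symbols.

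Intensities under the pooled 30th percentile, 68.9, were set to it, log2 was taken, and non-control probe sets with at least 3 arrays above it were fitted with limma 3.58.1 in R 4.3.3 (lmFit, eBayes with a variance trend), two-sided, with Benjamini-Hochberg adjustment over all 8950 tested. A gene is read by the brightest of its single-gene probe sets (highest mean log2). Group means and SDs are of deposited intensities; folds are on the floored log2 scale and understate dim genes. The method was tested on simulated data.

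Named with all values were members or probe sets at an unadjusted p under 0.05 or without overlap, and Fga, Fgb, Fgg, F2, Plg and Serpinc1; other members' full values were chosen after they were seen. Members and lists were chosen with earlier results of these data known. Of 32 members, 24 had a promoter in the RefSeq table; its 250 bases before the start were searched. Alternatives changed the scaling, floor, filter, variance model, weights, probe sets, threshold and arrays.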

Additional observations from a re-analysis of the deposited data

How the results depend on the processing

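In each of the 21 alternatives run for it, among them the one without both arrays numbered 3, which was chosen after seeing the data, 0 members passed limma's adjusted threshold. With 1 probe set per gene, the smallest adjusted p of a member ran from 0.357 to 0.812, and at an unadjusted p under 0.05 there were at most 3. The members' median log2 difference stayed between -0.086 and 0.00079, moving by less than its spread between arrays (SD 0.067). The background count of 74 probe sets was 120 at an adjusted p of 0.10, 20 without the variance trend and 8 without a filter, and ran from 27 to 76 with 1 array left out. The replicate block gave 103 background calls and 0 members; F7 and F10 had unadjusted p-values of 0.0358 and 0.0477 (adjusted 0.357 and 0.402). Same-numbered arrays of the diets correlated in their deviations with r of 0.071, 0.11 and 0.31. High-fat arrays 2 and 3 correlated best with the low-fat array of their own number. High-fat array 1 correlated best with low-fat array 2, also at 0.11, and the numbers were not taken as a pairing. Single estimates were followed for F2, F7, F10, Fga, Fgb, Fgg, Plg, Proc, Serpinc1 and Serpind1 and for the second Proc probe set, and not for the other members. Of these 191 estimates under alternatives, 5 moved by over 1 SE: Fga, Fgb, Fgg and F7 without low-fat array 1, and the second Proc probe set with the lower floor. Signal over background limits F3, Procr, Tfpi, Plaur, A2m, Thbd and Plat.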
